A study of Mus musculus with 4 samples.

Results

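The tachykinin system of the BNST (bed nucleus of stria terminalis), which belongs to the extended amygdala of the forebrain, was described through 4 genes chosen by name: the ligand genes Tac1 and Tac2 and the receptor genes Tacr1 and Tacr3. These are 4 of the 20136 genes named in the tables. The data were 4 Drop-seq libraries (libraries 1 to 4, batches 1 to 4 in the labels) from BNST punches of male C57BL/6J mice of wildtype genotype, 6 mice pooled in each, on a reverse light cycle with standard chow, with no treatment and no age in the labels. Drop-seq captures the RNA of single cells on barcoded beads and counts molecules by unique molecular identifiers (UMIs). All libraries belong to 1 group, so the comparisons are between kinds of cells within a library, and the spread is that between libraries. Because mice were pooled, variation between animals cannot be seen.

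Tachykinins are neuropeptides that are cut from larger precursors and share a carboxyl-terminal core. Tac1 encodes the precursor of substance P and neurokinin A, and Tac2 encodes the precursor of neurokinin B. Substance P prefers the receptor NK1, encoded by Tacr1, and neurokinin B prefers NK3, encoded by Tacr3. Both receptors couple mainly to Gq proteins, which raise intracellular calcium, and in the extended amygdala tachykinins are known for roles in stress, fear and anxiety-related behaviour. The other family members, the ligand gene Tac4 and Tacr2, the gene of the neurokinin A receptor NK2, entered no test.

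The coding sequences of the 3 mature peptides are shown because they are what relates the Tac1 product to the Tac2 product. They were read from GENCODE vM21 transcripts on GRCm38, 5′ to 3′ on the plus strand, and capitals mark the 5 codons of the shared carboxyl-terminal core.
substance P: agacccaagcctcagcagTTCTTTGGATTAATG
neurokinin A: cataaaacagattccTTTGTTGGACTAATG
neurokinin B: gacatgcacgacttcTTTGTGGGACTTATG
Substance P lies at chr6:7556732-7556764 in exon 3 of Tac1-205, and neurokinin A at chr6:7559101-7559130 in exon 6 of the same transcript. Neurokinin B lies at chr10:127729116-127729145 in exon 6 of Tac2-202. Of the 15 bases of the core, neurokinin A and neurokinin B shared 13, substance P and neurokinin A 12, and substance P and neurokinin B 10. Over the last 30 bases the same pairs shared 19, 17 and 15 bases, so the Tac1-encoded neurokinin A was nearer in sequence to the Tac2 product than to its own partner. In the same annotation Tac1 spans 7554879 to 7565834 on chromosome 6, Tac2 127724478 to 127731768 on chromosome 10, Tacr1 82402334 to 82560104 on chromosome 6 and Tacr3 134829007 to 134934579 on chromosome 3. None of the 4 overlaps another annotated gene. Mouse Tacr1 and Tac1 thus share a chromosome but lie far apart on it.

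The libraries held 3600, 1800, 2400 and 2400 barcodes with 5652342, 2762405, 2640399 and 2962880 UMIs. Cells were typed by UMIs of marker genes, with no clustering, and 4181 were kept, among them 2534 neurons and 1568 non-neuronal cells. No barcode was shared between libraries among kept cells. Of the neurons, 2168 were GABAergic (680, 474, 365 and 649 per library) and 78 glutamatergic (42, 17, 7 and 12). The other 288 met the rule of neither class, with too few transmitter UMIs or with neither marker list more than 2 times the other. Median depth was 3475 UMIs in GABAergic neurons, 5065 in glutamatergic neurons and 1137 in non-neuronal cells, so levels are given as CPM, UMIs of the gene per 1000000 UMIs of the cell group in that library. Drop-seq reads the 3′ end of transcripts, so CPM needs no length correction. GABAergic neurons were sorted further into 12 gates, each needing at least 2 UMIs of its marker or marker pair. A cell could pass more than 1 gate. In all, 831 passed none, 976 passed 1, 295 passed 2, 56 passed 3 and 10 passed 4.

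Both ligand genes were higher in neurons than in the non-neuronal cells as a whole. Tac1 stood at 369, 279, 302 and 228 CPM in GABAergic neurons of libraries 1 to 4 (mean 294 ± 58.6, SD, n = 4), and Tac2 at 493, 366, 170.4 and 401 CPM (357 ± 136). Tac1 had a UMI in 328 and Tac2 in 234 of the 2168 cells. The libraries were close to each other for Tac1, whereas library 3 was low for Tac2. The receptor transcripts were rare: Tacr1 stood at 15.4 ± 4.82 CPM with 94 positive cells, and Tacr3 at 12.3 ± 3.62 CPM with 73.

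Against non-neuronal cells, 3 of the 4 genes could be tested and all 3 were higher in neurons, beside 71.2% of all 10247 genes that passed in either direction (edgeR quasi-likelihood test with Benjamini-Hochberg adjustment, library as a block). Tac1 fell from 285 CPM in all neurons to 25.5 CPM in non-neuronal cells, a log2 difference of 3.22 (SE 0.17, adjusted p = 1.77e-24, higher in 4 of 4 libraries). Tac2 went from 329 to 4.12 CPM (log2 5.90, SE 0.25, adjusted p = 2.41e-28, 4 of 4). Tacr1 had 153 UMIs in neurons and 0 in 1568 non-neuronal cells, at least 11.7-fold higher in neurons when 3 UMIs over the non-neuronal group are taken as the limit (edgeR adjusted p = 1.06e-07, 4 of 4). Tacr3 was too sparse for the test, with 120 UMIs in neurons and 1 elsewhere, a ratio of 27.4 (95% exact interval 4.83 to 1093, counting error only). UMIs are molecules counted after amplification, so intervals and limits of this kind cover counting error only.

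Detection was also compared at equal depth, as the chance that a draw of 1000 UMIs from a cell holds the gene. Tac1 would be seen in 10.4% ± 1.41 of GABAergic neurons and 1.16% ± 1.43 of oligodendrocytes, the myelinating glia, and Tac2 in 8.0% ± 1.51 and 0.269% ± 0.365. The differences were 9.26 ± 0.857 and 7.73 ± 1.76 percentage points, positive in all 4 libraries, with p = 0.13 by exact permutation of the signs (two-sided), the smallest that 4 libraries allow. Without the draw, 328 and 234 of 2168 GABAergic neurons had a UMI, against 19 and 6 of 918 oligodendrocytes at a median of 1385 UMIs. Free RNA in droplets can give UMIs in cells that do not express a gene, and the oligodendrocyte values were taken as the background here. The origin of those UMIs was not tested. The Tac1 share in oligodendrocytes was uneven, at 3.28% in library 1 and 0.272% to 0.763% in libraries 2 to 4.

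Tac1 was not absent from every glial class. Oligodendrocyte precursors, the dividing cells that give rise to myelinating glia, held 24 Tac1 UMIs in 20 of 150 cells, with at most 3 in any cell. Their level was 100.1, 117, 147 and 174 CPM (134 ± 32.8), above the 18.7 ± 15.6 CPM of oligodendrocytes and the 2.40 ± 4.80 CPM of astrocytes in every library. In a comparison added after this was seen, Tac1 was higher in precursors than in other non-neuronal cells by 2.65 (log2, SE 0.45, edgeR adjusted p = 6.63e-08, 4 of 4 libraries), beside 39.5% of 4503 genes that passed in either direction. At equal depth 12.2% ± 3.15 of precursors would show Tac1, from the 78 precursors with at least 1000 UMIs, 9 of them in library 4. Tac2, Tacr1 and Tacr3 had 0 UMIs in the 150 precursors. For Tac2 this allows up to 16.8 CPM at 3 UMIs, which is at least 23.5-fold below GABAergic neurons. The same limit lies above the 15.4 and 12.3 CPM of Tacr1 and Tacr3 in GABAergic neurons. The receptor zeros therefore cannot show a lower level in precursors.

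Between the transmitter classes, Tac2 separated more widely than Tac1. Tac2 had 3493 UMIs in GABAergic and 4 in glutamatergic neurons, all 4 of them in 1 cell, and its log2 difference was 5.56 (SE 0.39, edgeR adjusted p = 1.59e-31, higher in 3 of 3 libraries). Library 3, with 7 glutamatergic neurons, was left out of this fit. Tac1 was also higher in GABAergic neurons (log2 0.98, SE 0.23, edgeR adjusted p = 0.00194, 3 of 3 libraries fitted). In library 3, which was not fitted, Tac1 went the other way. It was at 385 CPM in the 7 glutamatergic neurons, on 16 UMIs, and at 302 CPM in GABAergic neurons. These 2 genes were the members called, beside 2.06% of 9420 genes in either direction. The Tac1 call rests on few cells: glutamatergic values were 289, 39.4 and 0 CPM in libraries 1, 2 and 4, in 9 positive cells over all 4 libraries. It was lost when library 2 or library 4 was left out, and DESeq2 gave it an adjusted p = 1.00. Tacr1 (log2 0.47, adjusted p = 0.94) and Tacr3 (adjusted p = 0.13, with 0 UMIs in glutamatergic neurons) did not pass the edgeR test.

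Most Tac1 and Tac2 UMIs lay in a small number of cells. Positive cells had a median of 4 Tac1 UMIs and a maximum of 109, and the 144 cells with at least 5 held 86.3% of all Tac1 UMIs. For Tac2 the median was 5, the maximum 213, and 125 cells with at least 5 UMIs held 94.1%. Among 1568 non-neuronal cells, 2 reached 5 Tac1 UMIs and none exceeded 2 Tac2 UMIs. Receptor-positive cells had a median of 1 UMI, with a maximum of 4 for Tacr1 and 10 for Tacr3. A cell without a receptor UMI therefore cannot be taken to lack the receptor.

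Tac1 was spread over several GABAergic subtypes. It was highest in the gate of Avp and Gal, which encode the peptides vasopressin and galanin, at 694, 966, 838 and 457 CPM (739 ± 218). The gate of Cck, the cholecystokinin gene, and Greb1, an estrogen-responsive gene, followed at 569, 448, 811 and 617 CPM (611 ± 151), then the gate of Ppp1r1b (DARPP-32, a dopamine-signalling phosphatase inhibitor) and Crym (a thyroid hormone binding protein) at 435, 288, 571 and 505 CPM (450.0 ± 121). In these 3 gates Tac1 was above the other GABAergic neurons in all 4 libraries. The log2 differences were 1.46 (SE 0.15, edgeR adjusted p = 5.53e-10) for Avp and Gal, 1.31 (SE 0.13, adjusted p = 2.61e-11) for Cck and Greb1, and 0.71 (SE 0.12, adjusted p = 2.74e-06) for Ppp1r1b and Crym. The shares of genes called in those fits were 2.18%, 5.29% and 20.0%. The Ppp1r1b and Crym call was not held by DESeq2 (adjusted p = 0.17).

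**Figure D1:**
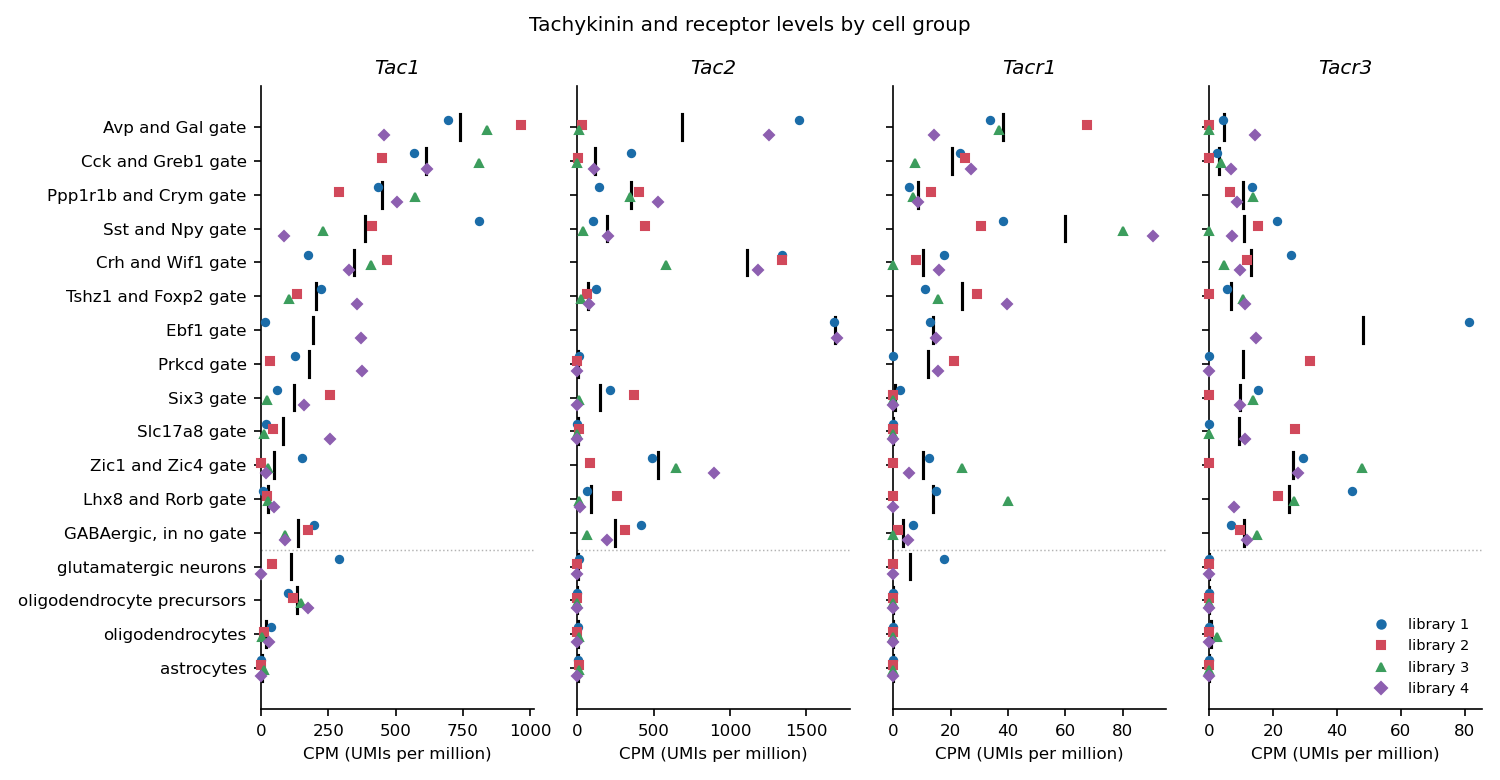
Level of each gene (CPM, linear axis, 1 panel per gene with its own scale) in the 12 GABAergic gates, in GABAergic neurons of no gate, and below the dotted line in glutamatergic neurons and glia. Points are libraries with at least 10 cells of the group and black bars are their means. Tac1 is led by the Avp and Gal gate (739 CPM), Tac2 by the Ebf1 and the Crh and Wif1 gates (1689 and 1112 CPM), and Tacr1 by the Sst and Npy gate (59.8 CPM).

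Tac1 was low at the other end of the order. The gate of Lhx8 and Rorb, a pair of transcription factor genes, stood at 7.44, 21.5, 26.7 and 46.0 CPM (25.4 ± 16), no higher than the 18.7 CPM of oligodendrocytes by more than the spread. Tac1 fell there by 3.93 on the log2 scale (SE 0.27, edgeR adjusted p = 1.37e-13, lower in 4 of 4 libraries; 10.6% of genes called). In the gate of Zic1 and Zic4, zinc finger transcription factor genes, it fell by 2.50 (adjusted p = 1.17e-09, 4 of 4; 2.77% called). It also fell in the gates of Six3 (-1.59, adjusted p = 1.16e-06, 4 of 4; 1.12% called), a homeobox gene, and Slc17a8 (-1.96, adjusted p = 1.32e-04, 3 of 4; 3.4% called), the vesicular glutamate transporter VGLUT3. In the gate of Prkcd, the protein kinase C delta gene, the fall of 0.97 (adjusted p = 0.00418; 7.12% called) held in 2 of 3 libraries and was lost without library 1 or library 2. DESeq2 did not hold the calls of the Six3, Slc17a8 and Prkcd gates (adjusted p = 1.00, 0.13 and 0.31). Tac1 thus passed the edgeR test in 8 of the 11 gates that could be fitted, 3 above and 5 below the other GABAergic neurons.

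In 3 gates Tac1 did not pass. The gate of Sst and Npy, which encode somatostatin and neuropeptide Y, varied most, with 809, 414, 231 and 83.3 CPM (log2 0.62, edgeR adjusted p = 0.14; 1.43% of genes called). Without library 1 its difference turned to -0.23. The gate of Crh, the corticotropin-releasing hormone gene, and Wif1, a secreted Wnt inhibitor, was at 345 ± 128 CPM (log2 0.20, adjusted p = 0.62; 5.95% called), and the gate of the transcription factor genes Tshz1 and Foxp2 at 204 ± 113 CPM (log2 -0.61, adjusted p = 0.12; 0.989% called). The Ebf1 gate, marked by another transcription factor gene, had at least 10 cells in only 2 libraries and was not fitted. Each gate's range over libraries overlapped that of the next gate in the order, so these values do not separate neighbouring gates. Whether the order is graded or stepped was not tested.

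Tac2 was sharper. The gate of Crh and Wif1 stood at 1342, 1341, 584 and 1181 CPM (1112 ± 360.2), against 229.6 ± 107 CPM in the remaining GABAergic neurons. The log2 difference was 2.31 (SE 0.09, edgeR adjusted p = 6.08e-21, higher in 4 of 4 libraries). This gate held 46.7% ± 6.17 of all Tac2 UMIs of GABAergic neurons while holding 10.6% ± 0.470 of the cells and 14.7% ± 1.18 of all UMIs. For Tac1 the gate with the largest share of UMIs changed with the library: Sst and Npy in library 1 (43.0%), Crh and Wif1 in library 2 (22.5%), Cck and Greb1 in library 3 (50.8%), and Ppp1r1b and Crym in library 4 (26.3%). The Ebf1 gate was higher still for Tac2 in libraries 1 and 4 (1678 and 1700.0 CPM, 19 and 12 cells), but had 0 and 44.9 CPM in the 7 and 4 cells of libraries 2 and 3. No test was made of it.

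Several gates had almost no Tac2. The Slc17a8 gate had 1 Tac2 UMI in 84 cells, a ratio of other GABAergic neurons to the gate of 163 (95% exact interval 29.2 to 6434), and the Prkcd gate had 1 in 51 cells, a ratio of 111 (19.9 to 4388). These intervals cover counting error only, not the spread between cells. Counted as cells, 1 of 84 and 1 of 51 had a Tac2 UMI, beside 234 of 2168 GABAergic neurons. In Prkcd neurons Tac1 had a UMI in 15 of 51 cells, whereas Tac2 had 1 UMI in all. Tac2 also fell in the Tshz1 and Foxp2 gate (log2 -2.35, edgeR adjusted p = 2.70e-14, lower in 4 of 4 libraries), in the Lhx8 and Rorb gate (-2.02, adjusted p = 2.93e-07, 4 of 4) and in the Cck and Greb1 gate (-1.51, adjusted p = 8.92e-07, 4 of 4). In the Six3 gate (-1.51, adjusted p = 1.11e-05) and the Sst and Npy gate (-1.24, adjusted p = 8.08e-05) it was lower in 3 of 4 libraries. DESeq2 did not hold the calls of the Cck and Greb1, Six3, and Sst and Npy gates (adjusted p = 0.18, 1.00 and 1.00), and the Sst and Npy call was lost without library 1. In the Cck and Greb1 gate, 139 of the 151 Tac2 UMIs of library 1 came from a single cell.

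The Tac2 level also varied within gates from library to library. In the Avp and Gal gate it was 1451, 29.0, 12.3 and 1258 CPM, and the edgeR difference did not pass (log2 0.72, adjusted p = 0.31). All 88 Tac2 UMIs of library 4 in this gate came from 1 of its 14 cells, whereas in library 1 they came from 10 of 30 cells. In the Zic1 and Zic4 gate the level was 487, 82.0, 648 and 898 CPM (log2 0.60, adjusted p = 0.24), and in the Ppp1r1b and Crym gate 139.8, 406, 344 and 527 CPM (log2 -0.15, adjusted p = 0.63). With 8 of 11 fitted gates past the edgeR test, Tac2 had 1 gate above and 7 below, while Tac1 had 3 above and 5 below. No test of the difference between these counts was made. The other GABAergic neurons of each fit include cells of the Crh and Wif1 gate, which held 46.7% of Tac2 UMIs. Outside that gate Tac2 stood at 229.6 ± 107 CPM. The 7 gates called below stood at 196 ± 179 (Sst and Npy), 150 ± 178 (Six3), 117 ± 163 (Cck and Greb1), 88.4 ± 116 (Lhx8 and Rorb), 73.5 ± 40.0 (Tshz1 and Foxp2), 4.17 (Prkcd) and 2.23 CPM (Slc17a8). A comparison without the Crh and Wif1 cells was not made. In the order of Tac2 levels, neighbouring gates overlapped except the Ebf1 gate above the Crh and Wif1 gate, which rests on the 2 libraries with enough Ebf1 cells, and the Tshz1 and Foxp2 gate above the Prkcd gate.

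Whether the 2 ligands mark the same cells was asked at equal depth. Among the 1980 GABAergic neurons with at least 1000 UMIs, a draw of 1000 UMIs would hold both genes in 1.62% ± 0.655 of cells, against 0.843% ± 0.251 if the 2 were independent within each library. The log2 odds ratio of co-detection was -0.76, 1.96, 1.71 and 1.98 in libraries 1 to 4 (mean 1.22 ± 1.33, p = 0.25 by the same exact permutation). Libraries 2 to 4 lay close together above 0 and library 1 lay below it. Without library 1 the mean was 1.88 ± 0.151, a set of 3 libraries that can give no p under 0.25, and at a draw of 2000 UMIs it was 0.73 over all 4. Most cells of either gene lacked the other: at this depth 16.2% ± 7.52 of Tac1 cells would also show Tac2, and 21.1% ± 8.81 of Tac2 cells would show Tac1.

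Counted without the draw, 48 cells held both (10, 16, 7 and 15). Their median depth was 4061 UMIs, beside 4363.5 in cells with Tac1 alone, 4337.5 in cells with Tac2 alone and 3231 in cells with neither. In 19 cells both genes had at least 5 UMIs, where 8.96 would be expected under independence within libraries. Per library these were 4, 7, 2 and 6, against 5.03, 1.90, 0.512 and 1.53 expected. Double-positive cells thus included cells rich in both transcripts in every library, but library 1 did not exceed its expectation.

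**Figure D2:**
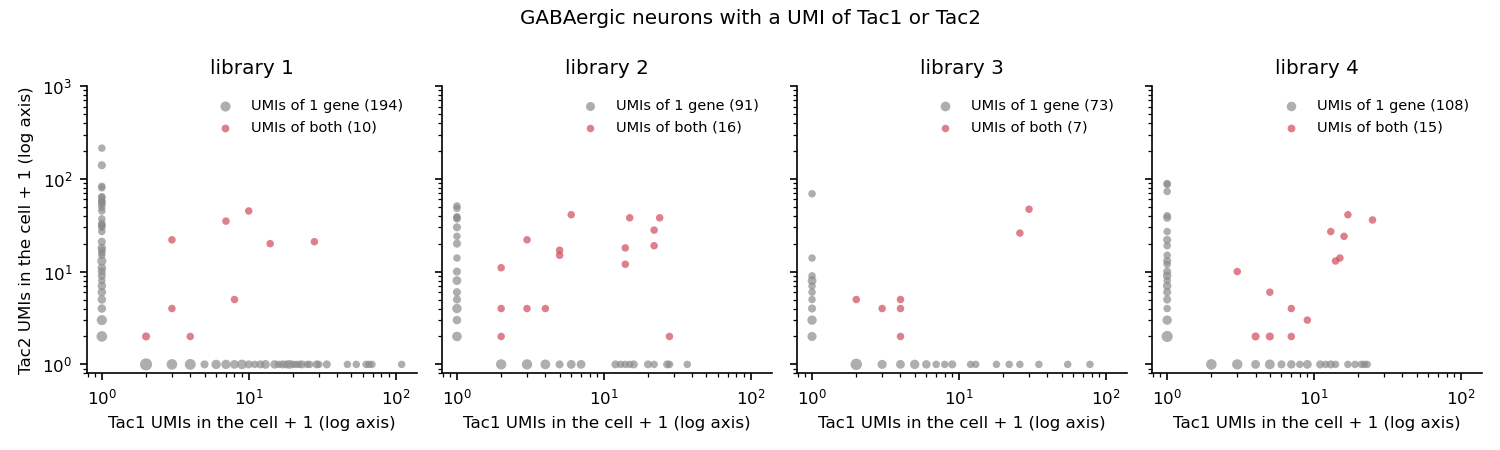
Tac1 UMIs + 1 against Tac2 UMIs + 1 (log axes) in each GABAergic neuron with a UMI of either gene, 1 panel per library; marker area grows with the number of cells at a point. Grey cells have 1 of the genes and red cells both (10, 16, 7 and 15 cells). Most cells lie on an axis, and some red cells carry more than 10 UMIs of each gene.

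The double-positive cells lay mostly in 2 of the 12 gates. Of the 48, 25 (52.1%) passed the Crh and Wif1 gate and 15 (31.3%) the Ppp1r1b and Crym gate, and 10 passed the Tshz1 and Foxp2 gate. Only 1 was in the Avp and Gal gate and 2 in the Cck and Greb1 gate, the gates of highest Tac1 level. Within the Crh and Wif1 gate, 40 of 231 cells had Tac1, and 25 of those 40 (62.5%) also had Tac2. In this gate 81 of the 231 cells had Tac2, so 14.5 double-positive cells would be expected from raw counts under independence within libraries. The log2 odds ratio at 1000 UMIs within this gate was 1.61, 4.77, 2.69 and 4.41 (mean 3.37 ± 1.48), above 0 in 4 of 4 libraries, library 1 included. Within the Ppp1r1b and Crym gate it was 0.80, 1.25, 4.94 and 1.76, on 15 double-positive cells. Outside the Crh and Wif1 gate it was -1.64, 0.63, 1.07 and 1.60, and 23 double-positive cells stood beside 23.7 expected from raw counts. Per library these were 6, 6, 3 and 8 against 12.3, 4.17, 2.63 and 4.56 expected, so library 1 offset the others. These gates were singled out after the distribution of the double-positive cells was seen. That choice can raise the odds ratio inside them and lower it outside, on the same cells. The values within and outside the gates are therefore descriptions, and no p-value is given for them.

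Pairs with other neuropeptide genes were described in the same way. Of 30 pairs of a ligand with another peptide, 17 had an expected count of at least 1 cell in every library and are given. The exact sign-flip permutation p reaches no lower than 0.13, so no pair can pass 0.05, and the pairs are described by the number of libraries on each side. In 12 of the 17, all 4 libraries fell on the same side of independence. This share was not computed for other pairs of genes, so the count cannot be called particular to the tachykinins.

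Of the pairs given with Tac1, the log2 odds ratio was highest for Pdyn, the prodynorphin gene, at 1.85, 2.85, 2.61 and 2.66 (2.49 ± 0.441). Of the Pdyn cells at equal depth, 36.3% would show Tac1, which 10.4% of all GABAergic neurons would show. In number of cells Cartpt was the most common partner, with both genes in 2.80% of cells beside 1.54% for Pdyn. Cck (1.28 ± 0.622), Cartpt, which encodes the CART peptides (1.27 ± 0.587), and Pnoc, the prepronociceptin gene (0.79 ± 0.301), were also above independence with Tac1 in 4 of 4 libraries. Penk, the proenkephalin gene, was below it in 4 of 4 (-0.70 ± 0.394), as were Npy (-0.74 ± 0.504, with library 1 at -0.04) and Nts, the neurotensin gene (-1.04 ± 0.706). The opioid precursors thus fell on opposite sides, Pdyn with Tac1 and Penk apart from it. Pdyn was not particular to Tac1, however. Its pair with Tac2 fell just below the limit on expected cells (0.972 in the lowest library). The log2 odds ratios of that pair were 0.24, 3.08, 1.69 and 1.65, above independence in 4 of 4 libraries, with 46 raw cells holding both. Sst (-0.34 ± 0.932) and Crh (0.38 ± 0.720) varied in sign between libraries.

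Tac2 went with Crh, a marker of a gate in which Tac2 was high, so this pair restates that gate in part. The log2 odds ratios were 2.21, 3.28, 3.33 and 2.71 (2.88 ± 0.528), and at equal depth 36.7% of Tac2 cells would show Crh, beside 9.51% of all GABAergic neurons. Penk (-0.95 ± 0.495), Sst (-1.07 ± 0.630) and Cartpt (-0.64 ± 0.415, with library 3 at -0.02) were below independence with Tac2 in 4 of 4 libraries. Npy was nearly exclusive of Tac2: 0.00998% of cells would show both where 0.535% would be expected, with no such cell in libraries 2, 3 and 4. Over whole cells, 3 had both genes among 202 Npy cells and 234 Tac2 cells. Cck and Tac2 would meet in 0.161% of cells against 0.456% expected, with no such cell in library 3 and library 4 on the other side (0.33). Pnoc (0.24 ± 0.739) and Nts (-0.04 ± 0.760) showed no common direction with Tac2. Cartpt and Cck were thus above independence with Tac1, Cartpt below it with Tac2, and Crh was above it with Tac2 in all 4 libraries. The differences between the ligands were not tested on these pairs.

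**Figure D3:**
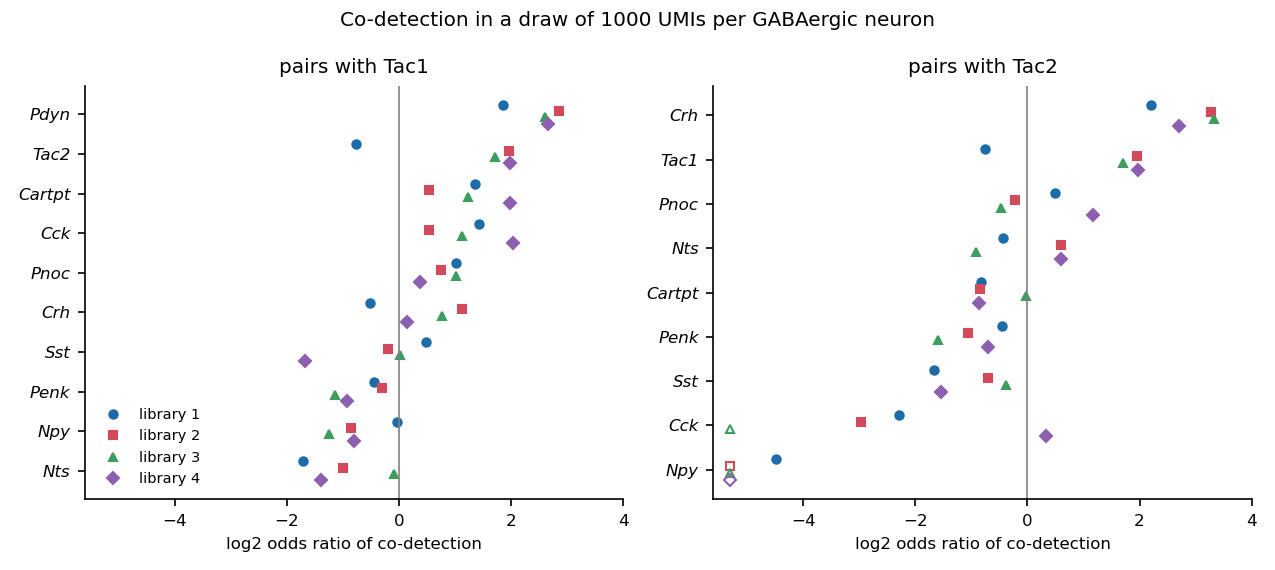
Log2 odds ratio of co-detection in a draw of 1000 UMIs per GABAergic neuron, for each pair with Tac1 (left) and Tac2 (right); points are libraries and the vertical line is independence. Open symbols at the left edge mark libraries with no cell holding both genes. All 4 libraries are above 0 for Tac1 with Pdyn and for Tac2 with Crh.

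The rarer peptides also fell below the limit on expected cells, and for these only raw cells are given. Of 23 GABAergic neurons with Avp, 17 had Tac1 and 3 had Tac2. Of 15 with Vip, the vasoactive intestinal peptide gene, 12 had Tac2 and 3 had Tac1. Of 97 with Gal, 32 had Tac1 and 15 had Tac2. For Grp it was 5 and 4 of 18 cells, for Adcyap1 3 and 1 of 19, and for Trh 1 and 5 of 14. The receptor pairs also fell below it: 22 cells had Tac1 and Tacr1, 7 Tac1 and Tacr3, 15 Tac2 and Tacr1, 11 Tac2 and Tacr3, and 3 both receptors. At 1 UMI per positive cell these counts cannot tell a ligand cell that bears its own receptor from one that does not.

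To ask what else distinguishes the ligand cells, the 280 GABAergic neurons with Tac1 and no Tac2 were compared with the 186 with Tac2 and no Tac1. Tac1 and Tac2 defined the groups, so their difference is no result. Of 4791 genes tested, 278 (5.8%) passed the edgeR test, 172 higher in Tac1 neurons and 106 lower, and 247 of them changed the same way in all 4 libraries. The counts depend on the test: DESeq2 called 44, and 101 remained past it without library 1. At an unadjusted p under 0.05 there were 783.

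Among the genes named here, the peptide genes Avp, Vip and Cck had the largest differences. Of 12 panel peptides tested, 6 were higher and 2 lower in Tac1 neurons, with a median log2 difference of 0.65 beside -0.0046 over all genes tested. Avp was at 705, 1121, 363 and 192 CPM in Tac1 neurons and 1.85, 5.61, 0 and 0 in Tac2 neurons. It had 872 UMIs against 2 (ratio 317, 95% exact interval 87.4 to 2619, counting error only). Only 23 of all GABAergic neurons had an Avp UMI, so few cells carry this ratio and the interval does not cover the spread between them. Cck was at 415, 70.8, 803 and 1004 CPM against 25.9, 5.61, 0 and 50.8 (log2 4.35, SE 0.23, edgeR adjusted p = 2.23e-23). For both genes the groups did not overlap. Cartpt was at 1347, 952, 615 and 1846 CPM against 240.3, 151, 67.7 and 305 (log2 2.60, SE 0.13, adjusted p = 3.14e-25), again without overlap. Gal was higher in every library (log2 2.13, adjusted p = 4.78e-07), but at 859, 2348, 347 and 167 CPM against 529, 5.61, 124 and 16.9 its groups overlapped, and DESeq2 did not hold it (adjusted p = 0.54). Sst (log2 0.97, adjusted p = 0.00155) and Pdyn (log2 0.86, adjusted p = 0.0367) were higher in 3 of 4 libraries, with no call by DESeq2. Sst lost the call without library 2 or 3, and Pdyn without library 1, 3 or 4.

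The peptides lower in Tac1 neurons were Vip and Crh. Vip was at 0, 31.5, 0 and 0 CPM in Tac1 neurons and 55.5, 241, 384 and 113 in Tac2 neurons, and it fell by 4.64 on the log2 scale (SE 0.42, edgeR adjusted p = 2.84e-13). Crh was at 157, 197, 272 and 14.8 CPM against 479, 634, 790.1 and 672, and it fell by 1.97 (SE 0.19, adjusted p = 2.12e-12). Neither gene's groups overlapped, though DESeq2 did not hold Crh (adjusted p = 0.14). Npy, Nts, Penk and Pnoc did not pass.

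**Figure D4:**
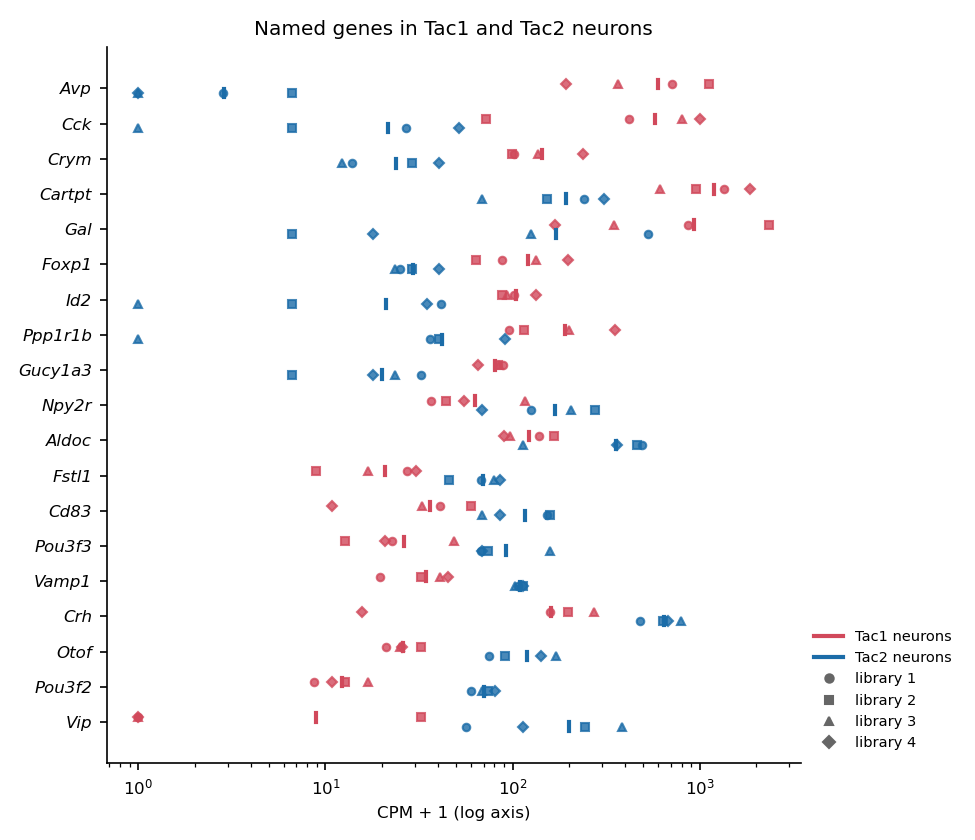
CPM + 1 (log axis) of genes with the largest rises (9 shown) and falls (10 shown) in Tac1 neurons (red, 280 cells) against Tac2 neurons (blue, 186 cells). Points are libraries and short bars are means of 4. Avp, Cck and Cartpt lie to the right in Tac1 neurons, and Crh, Vip and Pou3f2 in Tac2 neurons, with no overlap between the groups for these 6.

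Among the other large rises in Tac1 neurons were Crym (log2 2.63, SE 0.30, edgeR adjusted p = 9.68e-10), Foxp1, a forkhead transcription factor gene (1.94, adjusted p = 1.82e-06), Id2, an inhibitor of basic helix-loop-helix factors (1.88, adjusted p = 1.80e-05), Ppp1r1b (1.88, adjusted p = 2.58e-07) and Gucy1a3, a soluble guanylate cyclase subunit that responds to nitric oxide (1.85, adjusted p = 1.06e-04). All 5 were called by DESeq2 too, and none lost the edgeR call when any library was left out. Foxp1 was at 86.4, 62.9, 132 and 197 CPM in Tac1 neurons and 24.0, 28.1, 22.6 and 39.5 in Tac2 neurons. Crym and Ppp1r1b are markers of a gate in which Tac1 was high, so these 2 differences restate that gate. In the same way Avp, Gal and Cck mark the gates of highest Tac1 level, and Crh marks a gate in which Tac2 was high. Their differences between Tac1 and Tac2 neurons are therefore not separate from the gate results.

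Lower in Tac1 neurons were a pair of POU-domain transcription factor genes, Pou3f2 and Pou3f3. Pou3f2 was at 7.71, 11.8, 16 and 9.85 CPM against 59.1, 72.9, 67.7 and 79.0 in Tac2 neurons and fell by 2.65 (SE 0.39, edgeR adjusted p = 1.33e-06), and Pou3f3 fell by 1.80 (adjusted p = 6.30e-05). Otof, the otoferlin calcium sensor of exocytosis, fell by 2.10 (adjusted p = 9.70e-07), and Vamp1, a synaptobrevin, by 1.87 (adjusted p = 2.78e-06). Vamp1 was even across libraries, at 18.5 to 44.3 CPM in Tac1 neurons and 102 to 113 in Tac2 neurons. The others named by the rule were Cd83 (-1.76), Npy2r, a neuropeptide Y receptor gene (-1.55), Fstl1, a secreted follistatin-like gene (-1.63, not called by DESeq2), and Aldoc (-1.60). Aldoc, a glycolytic enzyme gene, is itself on the astrocyte marker list, which summed to 108 to 185 CPM in Tac1 neurons and 192 to 501 in Tac2 neurons and was lower in Tac1 neurons in 4 of 4 libraries. The part of that list in the result was not tested. Of the astrocyte markers 1 of 9 was tested, and 1 was at 0 in both groups.

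For the receptors, Tacr1 had a preferred subtype. In the Sst and Npy gate Tacr1 was at 38.3, 30.6, 79.9 and 90.5 CPM (59.8 ± 29.8), and in the remaining GABAergic neurons at 9.21 ± 2.37 CPM. The difference was 2.46 (log2, SE 0.32, edgeR adjusted p = 5.58e-07, higher in 4 of 4 libraries, among 9293 genes tested), and DESeq2 also called it (adjusted p = 1.92e-07). This gate held 46.3% ± 13.4 of Tacr1 UMIs in 12.4% ± 3.68 of the cells, with 41 of its 283 cells positive. The next gate, Avp and Gal, was at 33.7, 67.6, 37.0 and 14.3 CPM and did not pass (log2 1.51, adjusted p = 0.12); its range overlapped that of the first. No other gate passed for Tacr1. The Slc17a8 gate had 0 Tacr1 UMIs in 84 cells, which allows up to 7.59 CPM, and the Six3 gate had 1 UMI in 180 cells.

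The 94 neurons with Tacr1 were then compared with the other GABAergic neurons. They were deeper, with a median of 5401.5 UMIs against 3400.5. Of 8929 genes, 82 (0.918%) passed the edgeR test, 45 higher and 37 lower, of which 59 moved the same way in all 4 libraries; 648 were under an unadjusted p of 0.05. When the negative cells were matched on UMIs 5 genes passed, DESeq2 called 14, and without library 4 the number was 30. Depth moved with these groups.

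Sst and Npy were the leading genes. Both are markers of the gate in which Tacr1 was high, so their rise restates that gate. Sst was at 3221, 523, 5454 and 13562 CPM in Tacr1 neurons and 755, 432, 202 and 897 CPM in the rest (log2 2.95, SE 0.21, edgeR adjusted p = 1.28e-20, 4 of 4), and Npy at 2582, 306, 4643 and 7423 CPM against 533, 323, 156 and 478 (log2 3.04, SE 0.22, adjusted p = 1.28e-20, 3 of 4). Library 2 did not share the size of either difference, and DESeq2 held neither (adjusted p = 0.11 and 0.17). Chodl, a lectin-like membrane protein gene, went with them at 119, 89.3, 178 and 284 CPM against 53.5, 70.9, 74.1 and 52.2 (log2 1.47, SE 0.23, adjusted p = 6.14e-06), without overlap. With negative cells matched on UMIs Chodl did not pass (0.97, edgeR adjusted p = 0.46). Satb1, a chromatin organiser gene, rose by 1.85 (adjusted p = 1.23e-04) and Pcdh18, a protocadherin gene, by 2.24 (adjusted p = 2.46e-07); both, with Chodl, were called by DESeq2 and lost without library 4. Cartpt rose by 1.14 (3 of 4 libraries), and Gal, Avp and Cck passed edgeR with 2 of 4 libraries higher, so these 3 have no common direction, and the Cck and Avp calls were lost without library 2 (Cck also without library 1). The remaining large rises were in Gpd1, a glycerol-phosphate dehydrogenase gene (2.31, lost without library 3), Fam159b (1.71), Ppap2b (1.71) and Plagl1, a zinc finger gene (1.53), the last 3 lost without library 4.

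Among the falls, Slc17a8 had 0 UMIs in the 94 Tacr1 neurons and 469 in the rest, at least 11.2-fold lower at a limit of 3 UMIs over the group, and Wls, a gene of Wnt secretion, 0 against 134, at least 3.19-fold lower. The Wls call was lost without library 2, 3 or 4. Six3 fell by 2.23 (SE 0.37, edgeR adjusted p = 2.37e-05, 4 of 4 libraries, called by DESeq2 at 0.0197) and Pdyn by 2.45 (adjusted p = 0.00282, 4 of 4). Pdyn lost its call without library 1 or 4. Slc17a8 and Six3 mark the gates with 0 and 1 Tacr1 UMIs, so their falls restate those gates. Igfbp4, Zeb2, Fam19a1 and Rxrg fell too, on 2, 1, 2 and 6 UMIs in Tacr1 neurons; each but Igfbp4 lost the call when 1 or more libraries were left out. Of the peptide panel, 6 were higher and 3 lower (Pdyn, Nts and Penk) of 11 tested, a median of 0.97 beside -0.02 for all genes. DESeq2 gave Penk, Nts, Cck, Gal, Cartpt and Avp an adjusted p = 1.00 each, with Avp turned to -0.57, and edgeR lost Nts without library 1 and Penk without library 1 or 4. With negative cells matched on UMIs, Sst (4.12, edgeR adjusted p = 0.00647), Npy (3.14, adjusted p = 0.0262) and Cartpt (1.15, adjusted p = 0.0383) passed. Nts did not (-1.17, adjusted p = 0.31), and Penk and Cck turned to 0.015 and -0.23. Both ligands passed edgeR with Tacr1, Tac1 at 461 against 283 CPM (log2 0.76, adjusted p = 2.52e-04, 3 of 4 libraries) and Tac2 at 559 against 335 (log2 0.85, adjusted p = 2.52e-04, 2 of 4). Neither was called by DESeq2 (adjusted p = 0.74 and 1.00). Tac1 lost the call without library 1, and Tac2 without library 1 or 4. With negative cells matched on UMIs neither ligand passed (0.85 and 0.79, edgeR adjusted p = 0.84 and 0.11).

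Tacr3 had no gate past the test. The Ebf1 gate led in the 2 libraries that had enough cells (81.3 and 14.8 CPM), followed by Zic1 and Zic4 at 29.4, 0, 48.0 and 27.9 CPM (log2 1.15, edgeR adjusted p = 0.29) and Lhx8 and Rorb at 44.7, 21.5, 26.7 and 7.67 CPM (log2 1.24, adjusted p = 0.072). The gates of highest Tac1, Avp and Gal (4.62 ± 6.74 CPM) and Cck and Greb1 (3.21 ± 2.84 CPM), were the lowest for Tacr3. Neighbouring gates in this order overlapped throughout, whereas for Tacr1 the Ppp1r1b and Crym gate lay above the Six3 gate without overlap. That gap rests on only 7 Tacr1 UMIs against 1.

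Tac1 was lower in the 73 Tacr3 neurons, which were deeper than the rest (median 5887 against 3426 UMIs). It was at 87.8, 62.1, 17.6 and 57.1 CPM in Tacr3 neurons and 393, 288, 314 and 234 CPM in the other GABAergic neurons, with no overlap. It fell by 2.31 on the log2 scale (SE 0.23, edgeR adjusted p = 8.16e-21, lower in 4 of 4 libraries), and DESeq2 called it (adjusted p = 2.19e-06). It could not be fitted against cells matched on UMIs. Tac2, the gene of the preferred ligand of NK3, did not pass (403 ± 495 against 357 ± 144 CPM, log2 -0.07, SE 0.15, adjusted p = 0.99), and its sign turned without library 1 or 4. In all 60 of 8890 genes passed (0.675%), 19 higher and 41 lower, and 49 moved the same way in all 4 libraries; 602 were under an unadjusted p of 0.05. DESeq2 called 11, and 2 passed when negative cells were matched on UMIs.

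**Figure D5:**
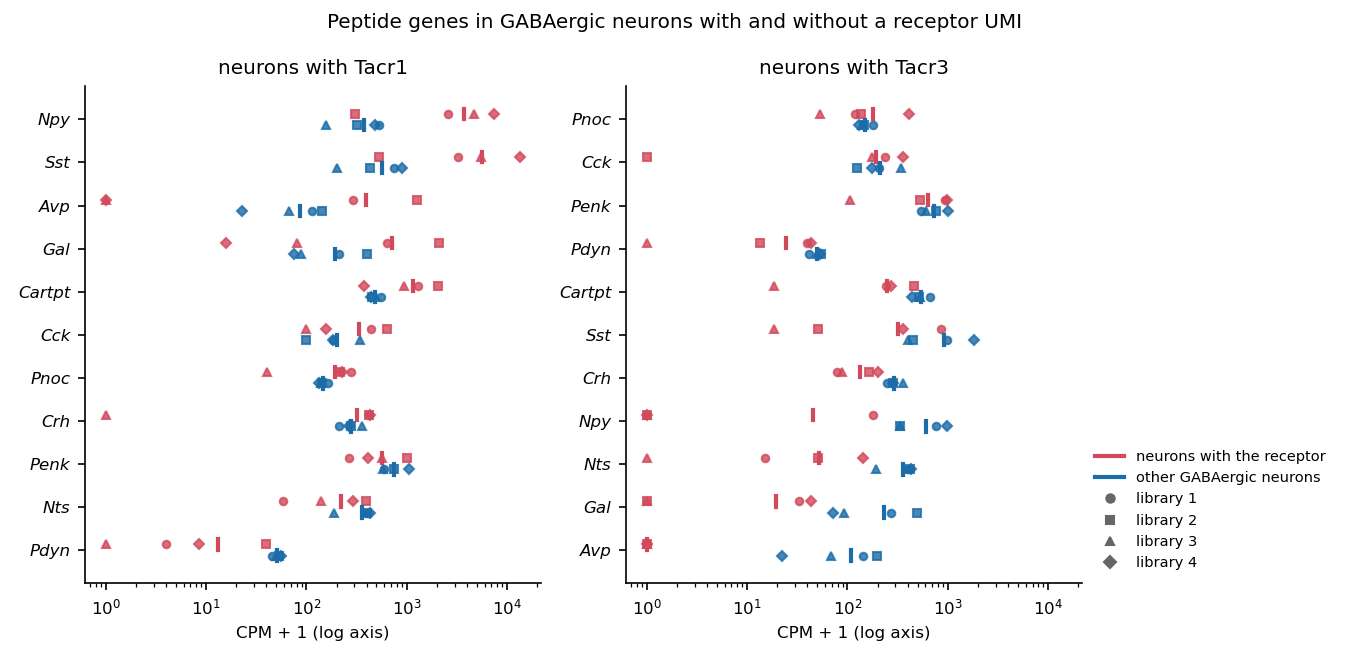
CPM + 1 (log axis) of the tested panel peptides in GABAergic neurons with a UMI of Tacr1 (left, 94 cells) or Tacr3 (right, 73 cells), in red, and in the other GABAergic neurons, in blue. Points are libraries and short bars are means of 4. Npy and Sst stand far to the right in Tacr1 neurons in libraries 1, 3 and 4, and Avp, Gal, Nts and Npy stand to the left in Tacr3 neurons.

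Several peptide transcripts were lower in Tacr3 neurons. Of 11 panel peptides tested, 0 were higher and 7 lower by edgeR, with a median of -1.26 beside -0.03 for all genes; DESeq2 called 2 of the 7. Nts was at 14.0, 49.7, 0 and 143 CPM against 405, 416, 194 and 428 and fell by 3.35 (SE 0.26, edgeR adjusted p = 3.79e-35; DESeq2 adjusted p = 0.0176). Crh was at 77.2, 161, 88.1 and 199.8 CPM against 245, 287, 354 and 282 and fell by 1.28 (adjusted p = 1.42e-07; DESeq2 0.027). For both genes the groups did not overlap. Npy fell by 2.92, Gal by 3.40, Sst by 1.26 and Cartpt by 1.16, each lower in 4 of 4 libraries and none called by DESeq2. Avp had 0 UMIs in Tacr3 neurons and passed edgeR, but only 23 of all GABAergic neurons had it and DESeq2 did not hold the call (adjusted p = 0.44). With negative cells matched on UMIs, Crh held (-1.77, edgeR adjusted p = 0.00536), Nts (-2.36, adjusted p = 0.098) and Cartpt (-0.83, adjusted p = 0.69) did not pass, and Sst turned to 1.65 (adjusted p = 0.44). Npy, Gal and Avp could not be fitted in the matched cells. Penk, Pnoc, Cck and Pdyn did not pass.

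Higher in Tacr3 neurons was Th, which encodes tyrosine hydroxylase, the rate-limiting enzyme of catecholamine synthesis. It was at 42.1, 74.5, 70.5 and 85.6 CPM against 6.94, 14.3, 12.5 and 6.37 CPM, without overlap (log2 2.70, SE 0.46, edgeR adjusted p = 1.85e-06; DESeq2 adjusted p = 4.92e-06), on 28 UMIs in all. Slc10a4, a transporter-like protein of monoaminergic and cholinergic vesicles, was at 17.6, 87.0, 106 and 28.5 CPM against 2.41, 2.75, 8.84 and 11.1 (log2 3.15, SE 0.53, adjusted p = 1.69e-06; called by DESeq2). Cdkn1a (2.36), Gpr101, an orphan receptor gene (1.13), and Lypd1 (0.73) rose and were called by both tools; Cdkn1a and Lypd1 lost the edgeR call without library 3 and Gpr101 without library 1. Fos, an immediate early gene, Ecel1 and Nefm, a neurofilament gene, rose by 1.06, 0.82 and 0.73 with no call by DESeq2, and all 3 lost the edgeR call without at least 1 library. With negative cells matched on UMIs, Gpr101 (0.65, edgeR adjusted p = 0.55) and Lypd1 (0.44, adjusted p = 0.72) did not pass. Nor did Ecel1 (0.92, adjusted p = 0.52) and Nefm (0.59, adjusted p = 0.83). Th, Slc10a4, Cdkn1a and Fos could not be fitted in the matched cells. Ppp1r1b fell by 1.93 (edgeR adjusted p = 9.68e-05), with the call lost without library 4 and not held by DESeq2 (adjusted p = 0.39), and Frmpd4 and Fam159b also fell, on 1 and 3 UMIs in Tacr3 neurons, with calls lost whichever library was left out.

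The wider tachykinin pathway was described from a list of 24 genes. Besides Tac4 and Tacr2 it holds genes of peptide processing, peptide breakdown, Gq signalling and receptor desensitisation. Of the 24, 18 could be tested between neurons and non-neuronal cells, where 12 were higher in neurons and 3 lower, beside 71.2% of all genes that passed, with a median of 1.19 beside 0.05 for all genes. Higher were the processing genes Pcsk1 (log2 3.29), Pcsk2, a prohormone convertase (log2 2.66), Scg5, its chaperone (2.60), and Pam, which amidates peptide ends as tachykinins require (1.90), and the phospholipase gene Plcb1 (2.05), whereas Cpe, a carboxypeptidase, was lower (-0.59). The breakdown genes split, with the endothelin-converting enzyme genes Ece2 higher (2.18) and Ece1 lower (-0.60). GABAergic and glutamatergic neurons differed in 2 of 18 (2.06% of all genes), Pcsk2 (-1.07) and Itpr1 (-1.11), both lower in GABAergic neurons. Between Tac1 and Tac2 neurons 1 of 13 tested was higher (Prkcb, 0.59) and 1 lower (Cpe, -0.36), beside 5.8% of all genes, and DESeq2 called neither. In Tacr1 neurons 1 of 18 was higher (Scg5, 0.48, 4 of 4 libraries; 0.918% of all genes), and in Tacr3 neurons 0 of 18 passed edgeR. The Prkcb call was lost whichever library was left out, Cpe without library 1 or 3, and Scg5 without library 1, 3 or 4. Scg5 also did not pass with negative cells matched on UMIs (0.43, edgeR adjusted p = 0.41).

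The strand setting of the counting is not given in the sources used here. Among the genes named above, Ppp1r1b, Vamp1, Gpd1, Satb1, Plagl1, Wls, Zeb2, Fam19a1, Six3, Penk, Cdkn1a, Lypd1, Nefm, Frmpd4 and Prkcb overlap a gene on the opposite strand in GENCODE vM21, and their values may hold reads of that gene.

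The genes whose profile was nearest to each ligand were sought over 13 points, the 12 gates and the glutamatergic neurons, among 8891 genes. For Tac1 the highest Pearson r of mean log2(CPM + 1) were those of Crocc (0.835), Zdhhc14 (0.819), Hspa14 (0.813), Manf (0.812) and Hsbp1 (0.807). For Tac2 they were Vamp3 (0.892), 9530077C05Rik (0.886), Usp11 (0.886), Gamt (0.884) and Lmo1 (0.875). These are descriptions: the points share libraries, gates share cells, and the highest of so many values is high by construction.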

How the data were processed

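Single-cell RNA was counted by Drop-seq in 4 libraries, each from 6 pooled mice, so replicates are pools of animals. For peptides carried by few cells, edgeR's standard error can be smaller than the spread between libraries: Avp in Tacr1 neurons had an SE of 0.23 with 2 libraries higher and 2 lower. The deposited tables hold UMI counts per gene and barcode, per the file headers and values. The submitters' processing notes name bcl2fastq 2.18.0.12, STAR 2.4.2a and Picard 2.2.4 and the builds mm10 and GRCm38; their roles, the annotation, the strand setting and the choice of barcodes are not given in the sources used here.

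Barcodes with at least 400 genes and at most 10% mitochondrial UMIs were kept (4239), less 58 doublets (Scrublet method, scanpy 1.11.5, with 0.05 as the doublet rate assumed), leaving 4181 cells with a median of 1849 UMIs. A cell took the class whose marker list had at least 3 UMIs and at least 2 times the next list. Neurons were GABAergic (Gad1, Gad2, Slc32a1) or glutamatergic (Slc17a6, Slc17a7) with at least 2 UMIs and more than 2 times the other list. The names of classes and gates are those of these markers and come from no deposited annotation. Lists of 8 classes were used, with 15 neuropeptides and 24 pathway genes; the members and lists were chosen with earlier results of these data known.

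UMIs were summed per library and cell group. A library entered a fit with at least 10 cells in both groups, and a fit needed 3 libraries. Tests were edgeR 4.0.16 quasi-likelihood F-tests (R 4.3.3, TMM, filterByExpr) over all genes with Benjamini-Hochberg adjustment and a threshold of 0.05. The library was a block because the labels make each library 1 pool of animals, from which both cell groups of a pair were taken. DESeq2 1.42.0 was an alternative. Standard errors are the log2 difference over the square root of F. Overlap at equal depth used GABAergic neurons with at least 1000 UMIs and a hypergeometric draw of 1000. The fits were tested on simulated data. Genes named were the 4 members; the 10 largest rises and falls (8 for receptors) among genes past the threshold and moving the same way in every library; panel peptides and pathway genes past the threshold; and the 5 genes most like each ligand. One gene that the rule names is not reported here. Other alternatives varied filters, class and gate minimums, normalization, thinning, depth matching and the library left out.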

Additional observations from a re-analysis of the deposited data

Results flagged for a closer look

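In 53 sets of 4 libraries, 4 had a library far from the other 3, where chance would give about 2.65. Tac1 in the Slc17a8 gate was 255 CPM in library 4 and 11.1 to 44.5 CPM in the others, and 18 of its 23 UMIs there came from 1 cell. Tac1 in the Zic1 and Zic4 gate was 151 CPM in library 1 and 0 to 24.0 CPM in the others, with 28 of 36 UMIs in 1 cell. The log2 odds ratio of Tac1 and Tac2 was -0.76 in library 1 and 1.71 to 1.98 in the others. Library 1 was also the deepest, with a median of 5929.0 UMIs in its double-positive cells; the part of depth in this value was not tested. The log2 odds ratio of Tac2 and Cartpt was -0.019 in library 3 and -0.87 to -0.83 in the others.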

How the results depend on the processing

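Of 11 summary results under 94 alternatives other than leaving out a library, 71 kept their size, 20 gave fewer calls and 3 moved by more than 1 SD. The Tac1 share was 7.38% at a draw of 500 UMIs and 13.9% at 2000, and the Tac2 share 6.22% at 500; a smaller draw holds fewer UMIs by construction. The mean log2 odds ratio of Tac1 and Tac2 was 1.39 at 500, 0.73 at 2000 (exact permutation p = 0.375) and 1.83 with at least 5 UMIs of each gene. Over 114 single-gene results and 1425 alternatives, 1187 were the same, 197 weaker, 20 stronger and 21 turned direction; the cause was not tested. DESeq2 called 1 member between GABAergic and glutamatergic neurons where edgeR called 2, 44 genes between Tac1 and Tac2 neurons (278), 14 in Tacr1 neurons (82) and 11 in Tacr3 neurons (60), and Tac1 passed in 4 gates and Tac2 in 5 (8 each). Cells thinned to 1000 UMIs gave 1, 38, 9 and 9 in the first 4 of these. A mitochondrial limit of 5% gave 115 genes for Tac1 against Tac2 neurons and 22 for Tacr3 neurons; for Tacr1 neurons it left too few libraries. Negative cells matched on UMIs gave 5 genes for Tacr1 and 2 for Tacr3. Requiring at least 5 UMIs of the ligand, an alternative chosen after seeing the data, gave 75 genes.

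Without the replicate block, that is with the pairing of sums within a library ignored, GABAergic against glutamatergic neurons gave 1 member, Tac1 against Tac2 neurons 48 genes, Tacr1 neurons 13, Tacr3 neurons 13, and Tac2 passed in 5 gates; Tac2 in Tacr3 neurons turned to 0.14 (log2).

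Leaving out 1 library gave 3 to 4 members for neurons against non-neuronal cells, 1 to 2 for the transmitter classes, 101 (without library 1) to 292 genes for Tac1 against Tac2 neurons, 30 (without library 4) to 73 for Tacr1 neurons, with 51 without library 1, and 29 (without library 3) to 43 for Tacr3 neurons, with 34 without library 1. Tac1 passed in 7 to 10 gates and Tac2 in 8 to 10. The mean log2 odds ratio of Tac1 and Tac2 was 0.97 to 1.88, the Tac1 share 9.79% to 10.9%, the Tac2 share 7.47% to 8.66%, and 12 to 13 peptide pairs kept 1 side.

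Single log2 differences that turned under another setting were these. Under DESeq2 they were Tacr3 in the Sst and Npy gate (-0.0043), Tac2 in the Ppp1r1b and Crym gate (0.027), Tac2 in the Avp and Gal gate (-0.77) and Avp in Tacr1 neurons (-0.57). At the 5% limit they were Tac2 in the Ppp1r1b and Crym gate (0.0024) and in the Zic1 and Zic4 gate (-0.86). With cells in exactly 1 gate, Tacr3 in the Ppp1r1b and Crym gate was 0.20, and with gates of at least 3 UMIs, Tacr1 in the Tshz1 and Foxp2 gate was -0.16. Thinning gave 0.22 for Tac1 in the Tshz1 and Foxp2 gate and 0.073 for Cpe between Tac1 and Tac2 neurons. Matching gave 0.015 for Penk and -0.23 for Cck in Tacr1 neurons and 1.65 for Sst in Tacr3 neurons. Over left-out libraries, Tac2 in Tacr3 neurons ran from -1.08 to 0.41, Tac1 in the Sst and Npy gate from -0.23 to 1.00, Tacr1 in the Prkcd gate from -1.53 to 0.23, Tac1 in the Crh and Wif1 gate from -0.070 to 0.73, Tac2 in the Avp and Gal gate from -0.0052 to 1.32 and Tac2 in the Ppp1r1b and Crym gate from -0.49 to 0.55.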
